A study of Rattus norvegicus and synthetic construct with 4 samples.

Results

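The human genome carries its replication-dependent histone genes in a few compact clusters, and 57 of the 3378 islet elements with deposited reporter counts lay in 6 windows that cover such clusters. An element was taken as a member when its midpoint (hg19, as are all coordinates here) fell inside a window, a choice that used position alone and no measured value. Cluster A spans 26.01 to 26.3 Mb of chromosome 6 and gave 34 members, cluster B spans 27.09 to 27.12 Mb of chromosome 6 with 6 members, and cluster C spans 27.77 to 27.87 Mb of chromosome 6 with 5 members. Cluster D spans 149.78 to 149.87 Mb of chromosome 1 with 7 members, cluster E spans 228.61 to 228.66 Mb of chromosome 1 with 2 members, and cluster F spans 14.91 to 14.93 Mb of chromosome 12 with 3 members. A human gene annotation was not used here, so members are named by position, and tiles were not assigned to single histone genes or to promoters that such genes share.

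The elements came from a library of 7188 designed sequences of 198 bp that had been mapped as transcription starts by CAGE in human pancreatic islets. STARR-seq tests such a sequence in a plasmid in which it drives its own transcription, so RNA over plasmid DNA is its activity. The plasmids were electroporated into INS1 832/13, a rat insulinoma line that stands in for insulin-secreting beta cells, at 10 ug of plasmid per replicate, and the cells were harvested 24 h later. The labels name 3 RNA samples as biological replicates, next to 1 sample of the input plasmid DNA. Human sequence was therefore read in rat cells, under a single condition, and the libraries share 1 plasmid pool.

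Replication-dependent histone genes encode the core histones H2A, H2B, H3 and H4, around which DNA is packed into chromatin, and the linker histone H1. They are transcribed mainly in S phase, when new DNA needs new histones, and their messages end in a stem-loop in place of a poly(A) tail. H2A and H2B genes often stand head to head and share the short stretch between them as a promoter for both directions.

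Every plasmid carried a random barcode of 16 bases, so plasmids of the same element can be told from each other. The barcodes of a pair of neighbouring tiles in cluster A are printed because they show what a member's value is made of. The tile of chromosome 6 from 26124339 to 26124536 and its neighbour from 26124439 to 26124636 share 98 bp, and each was carried by 5 counted barcodes. These barcodes are read from the deposited counts, and their letters are tags, not islet sequence.
26124339 tile, barcode 1: aaagccttgtgcacta
26124339 tile, barcode 2: aggtcacgcatgcctc
26124339 tile, barcode 3: atgggttcatgtgtga
26124339 tile, barcode 4: cattactggtactaaa
26124339 tile, barcode 5: ttctgtgcaccataat
26124439 tile, barcode 1: ctcagttactatatta
26124439 tile, barcode 2: gtcataacgttgcatt
26124439 tile, barcode 3: gtgcaggcggactgca
26124439 tile, barcode 4: gtgccaccaattgccg
26124439 tile, barcode 5: tctttgcatgtttgac

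On the first of these tiles the 5 barcodes had 60, 31, 55, 19 and 28 plasmid DNA counts and 2, 1, 4, 2 and 4 RNA counts over the 3 libraries. On its neighbour they had 36, 16, 34, 38 and 11 DNA counts and 18, 13, 14, 5 and 24 RNA counts. Each barcode of the second tile had more RNA than any barcode of the first, although each took most of its counts from a single RNA library. Barcode gtcataacgttgcatt, for example, had 0, 1 and 12 RNA counts, and barcode tctttgcatgtttgac had 2, 20 and 2.

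Total depth was 1079728 counts in the plasmid DNA and 211117, 197554 and 218571 in RNA replicates 1, 2 and 3. The 57 members had 553 barcodes with 18057 plasmid DNA counts, and 1717, 1343 and 1579 RNA counts in the 3 libraries. They thus made up 1.67% of the plasmid DNA and 0.739% ± 0.0682 (SD, n = 3) of the RNA, with 0.813, 0.680 and 0.722% in the single libraries. Activity is given below as RNA/DNA relative to the centre of the library, where 1 is the level that TMM normalization sets as unchanged, so a value below 1 is low against other elements and is not repression. SDs of RNA/DNA are over the 3 RNA libraries against the same 1 DNA library, so DNA error is not in them.

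The histone windows held weak elements. The median member was at 0.541 times the centre, a log2 RNA/DNA of -0.88, and the median of the 3321 elements outside the windows was at 0.986 times, a log2 of -0.02. Members ranged from a log2 of -3.45 to 0.95, while elements outside reached 4.64. Only 13 of the 57 members (22.8%) were above the centre, against 1647 of all 3378 elements (48.8%). At most 0.5 times the centre were 26 members (45.6%) against 20.1% of all elements, and at least 2 times the centre were 0 members against 22.7%. Below the centre in 3 of 3 RNA libraries were 30 members (52.6%) against 28.5% of all elements, and above it in 3 of 3 were 5 members (8.77%) against 26.2%.

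In edgeR's quasi-likelihood test with Benjamini-Hochberg adjustment over all 3378 elements, 0 members were called above the centre at an adjusted p under 0.05, where 8.88% of all elements were. No member was called below it either, and neither was any other element (0%). In simulated counts of this depth the test called almost no lowered element, so the lack of calls below does not show that no member is low. At an unadjusted p under 0.05, 0 members were above, against 13.5% of all elements, and 1 was below, against 0.77%. DESeq2 also called 0 members in either direction, where it called 419 of all 3378 elements above and 0 below. It left 33 of the 57 members without an adjusted p. The limma-voom test called 0 members above and 6 below, against 15.1% and 4.03% of all elements. All 6 lay in cluster A, and 1 of them, from 26124104 to 26124301, had 31 barcodes while the others had 3 to 12. With library totals in place of TMM, edgeR called 0 members above, against 5% of all elements, and this tile alone below, against 1.48%.

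The gap to the other elements had the same sign in each RNA library. The median log2 RNA/DNA of members, with a pseudocount of 0.5 counts, was -1.13, -0.98 and -0.93 in the 3 libraries and that of elements outside -0.10, -0.06 and -0.10. The difference was -0.93 ± 0.10 (SD, n = 3), and -0.86 in the fit over all libraries. Since members share libraries and plasmid pool, this difference was described and not tested.

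Nearness to other elements moved with the value, and its part in the members' difference was not tested. Elements outside that overlap another paired element had a median log2 of -0.38, and those with another paired element within 1000 bp had -0.28, against 0.07 for those with none. Of the 57 members, 40 overlapped another paired element. Against the outside elements that overlap, all members together differed by -0.51 in the fit. The 40 overlapping members differed from the same elements by -0.25 in the fit and by -0.44 ± 0.13 (SD, n = 3) across the libraries. The 17 members without overlap differed from the outside elements without overlap by -1.38 in the fit and by -1.04 ± 0.25 across the libraries. Among members themselves the order in the fit was the other way, as the 40 overlapping members had a median log2 of -0.62 and the 17 without overlap -1.32. The libraries did not bear this out, with averages of -0.99 ± 0.18 and -1.04 ± 0.22 (SD, n = 3). In RNA replicate 1 the overlapping members were the lower, at -1.18 against -0.80. Of these 17, 6 had a paired element within 1000 bp, with a median of -0.08 in the fit, against -0.09 for such elements outside. Across the libraries these medians averaged -0.46 ± 0.60 and -0.17 ± 0.05 (SD, n = 3). The 11 members with no paired element within 1000 bp, most of them in cluster A, had a median of -1.34. Their range was from -3.45 to 0.07, with 1 of them above the centre.

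Low values also reached beyond the windows. The 28 elements within 1 Mb of a window, outside it, had a median log2 of -0.76 (range -2.56 to 3.54), and the members' median differed from theirs by -0.13. In the 3 RNA libraries the medians of these neighbours were -1.15, -0.37 and -0.63. Those of the members were -1.13, -0.98 and -0.93, so the neighbours were as low as the members only in the first library. On chromosome 6 there were 8 of them with a median of -0.93, and on chromosomes 1 and 12 there were 20 with a median of -0.62. Of the 28, 3 were called above the centre, where 8.88% of all elements were. In the fit 35.7% of the 28 were above the centre, against 22.8% of members and 48.8% of all elements. The highest, on chromosome 6 from 26597101 to 26597298, stood at 11.6 ± 1.07 times the centre over 12 barcodes. The 216 other elements of chromosome 6 as a whole had a median log2 of -0.36, and 4.63% were called above.

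In the fit over all libraries most of the members' difference was lost without cluster A, although A was not the only low cluster. The 34 members of cluster A had a median of 0.412 times the centre (log2 -1.27), with 7 above the centre and 23 below it in all 3 libraries. The 23 members of the other clusters together had a median of 0.863 times (log2 -0.21), and without cluster A the difference from elements outside was -0.19. The libraries did not order these sets alike. Cluster A was the lower in RNA replicate 1, at -1.59 against 0.07, and in replicate 3, at -1.15 against -0.59. In replicate 2 it was at -0.88 and the other clusters were lower still, at -0.998. Across the libraries the other clusters together averaged -0.51 ± 0.54 (SD, n = 3), against -0.09 ± 0.03 for elements outside the windows. Cluster A and the other clusters together each had a median of 6 barcodes. Taken singly, the medians in the fit were -0.64 in cluster B, -0.19 in C, -0.16 in D, 0.56 in E and -1.32 in F, so the 3 members of F were as low as cluster A.

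With counts summed over all members of a cluster, RNA/DNA was 0.641 ± 0.0210 in cluster A, 0.723 ± 0.253 in B, 0.902 ± 0.133 in C, 1.07 ± 0.229 in D, 1.63 ± 0.860 in E and 0.480 ± 0.159 in F (SD, n = 3). The same sum over all elements outside was 1.68 ± 0.0239, since summing weights the strong elements. Cluster E was the highest and cluster F the lowest in this order. Clusters A and B, B and C, C and D, and D and E differed by less than the larger SD of each pair, and cluster E rested on 14 barcodes.

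The lowest members were single elements of cluster A. The element from 26032229 to 26032426 had RNA/DNA of 0.195, 0.102 and 0.0473 times the centre in the 3 libraries, from 5 barcodes, and was the lowest member with at least 5 barcodes. The one from 26189229 to 26189426, with 6 barcodes, followed at 0.193, 0.0807 and 0.150. Their means were 0.115 ± 0.0745 and 0.141 ± 0.0566, and both were below the centre in every library. The adjusted p from edgeR was 0.484 and 0.540. Outside the naming rule for lack of barcodes, the element from 26273071 to 26273268 had the lowest value of all members, with 1, 0 and 3 RNA counts on 127 DNA counts. A count of 0 there allows up to 0.212 times the centre in the second library, counting error only.

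Other elements of cluster A, with at least 10 barcodes, were less extreme. The element from 26043819 to 26044016, with 32 barcodes and 1286 DNA counts the most deeply covered member, was at 0.793, 0.697 and 0.641, so all libraries lay below the centre and close together. The element from 26056688 to 26056885, over 20 barcodes, was at 0.319 ± 0.0887, and the tile starting at 26056588, which shares 98 bp with it, was at 0.403 ± 0.377 over 2. The element from 26033716 to 26033913, over 15, was at 0.394 ± 0.198, and that from 26197399 to 26197596, over 10, at 1.05 ± 0.155.

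The run with most paired tiles in any window lay in cluster A from 26123904 to 26124836, where 7 of 8 paired tiles were counted, with 115 barcodes in all. Its tiles varied between low and moderate output. From the lowest coordinate on, the tile starting at 26123904 had 0.193 ± 0.0868 times the centre, that at 26124004 had 0.477 ± 0.239, and that at 26124104 had 0.415 ± 0.133. The tile starting at 26124204 then reached 1.49 ± 0.388.

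The next tile, starting at 26124339, was back at 0.192 ± 0.0460, and the one at 26124439 reached 1.58 ± 0.465. The last counted tile, starting at 26124639, had 0.654 ± 0.266. Both of the higher tiles were above the centre in all 3 libraries, and the tiles at 26123904, 26124004, 26124104, 26124339 and 26124639 were below it in all 3.

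The step between 26124104 and 26124204 had the best barcode support of all neighbouring tiles, with 31 and 30 barcodes. The left tile was at 0.282, 0.548 and 0.415 times the centre and the right tile at 1.94, 1.27 and 1.27, so the groups of 3 values do not overlap. The log2 difference was 1.86 ± 0.81 (SD, n = 3). Of the left tile's barcodes 5 of 31 had 5 or more counts in an RNA library, and of the right tile's 15 of 30. The left tile was the 1 member with an unadjusted p under 0.05, at a log2 of -1.27 ± 0.60 (SE), and edgeR's adjusted p was 0.284.

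The step down that followed was larger and rested on 30 against 5 barcodes. From 26124204 to 26124339, tiles that share 63 bp, the log2 difference was -2.80 ± 0.32, and from there to 26124439 it was 2.89 ± 0.66. All 3 libraries showed the same sign for both steps. With 3 libraries the smallest two-sided exact p of a paired difference is 0.25, so steps between tiles were not tested.

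Another run in cluster A spans 26156488 to 26157266, with 4 of 6 paired tiles counted. The tile starting at 26156769 was at 1.96, 2.47 and 0.458 times the centre, and its left and right neighbours, starting at 26156669 and 26156869, were at 0.389 ± 0.269 and 0.191 ± 0.0327. The third library of the middle tile lay below the centre, so that the step from the left tile kept its sign in only 2 of 3 libraries. The step to the right tile was -2.63 ± 1.15, with the same sign in 3 of 3. The middle and right tiles had 6 and 5 barcodes.

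A run of 4 tiles from 26285559 to 26286056 was highest at its upper end. The tile starting at 26285759 had 0.0644, 0.112 and 0.772 times the centre over 12 barcodes, and its neighbour starting at 26285859 had 1.93, 1.01 and 1.31 over 20. The log2 difference was 2.83 ± 1.98, with the same sign in 3 of 3 libraries. The ranges do not overlap, although the third library of the lower tile stood apart from the others. Over barcodes with at least 20 DNA counts alone, the log2 of the tile starting at 26285859 was -0.16, against 0.50 in the main fit. That of the tile starting at 26285759 was -1.48, against -1.65. The tiles starting at 26285559 and 26285659 were at 0.643 ± 0.296 and 0.413 ± 0.622.

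The remaining runs of cluster A were thinly covered or uniform. In the run from 26204696 to 26205193 all 4 paired tiles were counted, with 4, 7, 3 and 5 barcodes, and stood at 0.863 ± 1.10, 0.541 ± 0.382, 1.57 ± 0.945 and 0.823 ± 0.899 times the centre. The first of them had 0.258, 0.202 and 2.13, and a single barcode held 87.8% of its RNA counts. The elements starting at 26158344 and 26158544, which do not overlap, were close, at 0.369 ± 0.0825 and 0.411 ± 0.248, with a log2 difference of 0.06 ± 0.52.

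Cluster B had no member above the centre in the fit. In its run from 27114428 to 27115009 the tile starting at 27114528 was at 0.308, 0.276 and 0.128 times the centre over 6 barcodes, and its right neighbour, starting at 27114628, at 0.684, 0.757 and 1.15 over 29. The ranges do not overlap, and the log2 difference was 1.79 ± 1.02. The single element starting at 27106969 had 1.45, 0.145 and 1.21 times the centre over 4 barcodes, with RNA replicate 2 far below the others.

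Cluster C held the member that was highest in the main fit. The element from 27775590 to 27775787 was at 0.571, 3.50 and 1.74 times the centre over 6 barcodes, with a mean of 1.94 ± 1.47. A single barcode carried 61.4% of its RNA counts, and its first library lay below the centre. Over barcodes with at least 20 DNA counts alone, the element's log2 was -0.95, against 0.95 in the main fit. Its neighbour starting at 27775853, which does not overlap it, was at 0.930, 0.563 and 0.119 over 10 barcodes, so the values of these elements overlap. The tiles starting at 27806074 and 27806174 differed little, at 1.23 ± 0.757 and 0.877 ± 0.479, with a log2 difference of -0.42 ± 0.18. The third tile of that run, starting at 27806244 and carried by 2 barcodes, was at 0.212 ± 0.191.

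On chromosome 1, 8 of 9 members were between 0.5 and 2 times the centre in the fit. The exception, starting at 149859258 in cluster D and carried by 2 barcodes, was at 0, 0.768 and 0.238 times, with a mean of 0.335 ± 0.393, and the 0 allows up to 0.734 times, counting error only. In the same cluster the tile from 149858209 to 149858406, with 37 barcodes the member with most, was at 1.44, 1.06 and 1.34 times the centre, and its left neighbour starting at 149858109, with 15 barcodes, at 1.37, 0.607 and 0.524. The log2 difference was 0.73 ± 0.64, with the same sign in 3 of 3 libraries, though in the first library the values were nearly equal. In cluster E the element from 228645470 to 228645667 was at 2.32, 1.21 and 2.13 over 10 barcodes. It was above the centre in all libraries at a log2 of 0.92 ± 0.82 (SE), and edgeR's adjusted p was 0.813. The tiles starting at 149783700, 149783800 and 149783900 in cluster D, with 2, 5 and 4 barcodes, were at 1.11 ± 1.77, 0.891 ± 0.354 and 0.976 ± 0.553.

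The partner of that element, starting 262 bp further at 228645732, was at 3.00, 0.188 and 0.291 times the centre over 4 barcodes. Its first library was high and the other libraries low. In cluster F on chromosome 12, the overlapping tiles starting at 14923882 and 14923982 were at 0.377 ± 0.251 and 0.723 ± 0.384, with a log2 difference of 1.08 ± 0.60 and the same sign in 3 of 3 libraries. The third element there, starting at 14927238, was at 0.399 ± 0.238 over 14 barcodes.

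The members without a value so far were 6 in cluster A, 3 in B and 1 in D, each with 2 to 9 barcodes. Of these, 1 was above the centre in the fit, the element starting at 26021744, which had 1.58, 1.65 and 0.191 over 2 barcodes. The lowest was the one starting at 26020618, at 0.257 ± 0.128 over 4.

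Overlapping tiles often differed in output. Among counted members there were 23 overlapping pairs that share at least 50 bp, made of 34 members, and 20 of these pairs share 98 bp. Their median absolute log2 difference was 1.18, with a range from 0.0332 to 2.89, against 0.891 in 257 such pairs outside. The difference was 2-fold or more in 15 pairs (65.2%), against 45.1% outside, and had the same sign in all 3 libraries in 12 pairs (52.2%), against 34.6% outside. In the 12 pairs whose tiles each had 5 barcodes or more the median was 1.82, against 0.717 in 109 pairs outside. Among members with at least 10 barcodes it was 1.08. In 11 of the 23 pairs the tiles lay on opposite sides of the centre, in 12 both were below, and in 0 pairs were both above. Of the 257 pairs outside, 94 lay on opposite sides, 118 were both below and 45 both above. Tiles occur in up to 2 pairs each and are not independent, and 14 of the 23 pairs are in cluster A. Without cluster A the median difference was 1.03 over the other 9 pairs, with no limit on barcodes.

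The run of tiles gave no common direction. The right tile was higher in 13 pairs and the left in 10. Elements that follow each other within 1000 bp without overlap made 5 pairs, with a median absolute log2 difference of 1.36, and the sign was the same in all 3 libraries in 1 of them, the pair starting at 26124439 and 26124639.

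Fewer plasmids of the members gave much RNA, taken here as at least 5 RNA counts on a barcode in a library. In RNA replicate 1, 13.9% of the members' barcodes had at least 5 counts (exact 95% interval 11.1 to 17.1%), against 22.9% outside (22.4 to 23.3%). In replicate 2 the shares were 9.58% (7.26 to 12.3%) and 22.3%, and in replicate 3 they were 11.6% (9.03 to 14.5%) and 23.6%. Among barcodes with at least 5 counts, the median was 16 counts in each library for members and 18, 17 and 17 outside, and the mean was 16.7 to 17.4 for members and 21.7 to 23.2 outside. These medians and means are over barcodes chosen for their counts and are a description only. Intervals take barcodes as independent draws and cover the sampling of barcodes only, and the reads carry no stated molecular identifier.

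High counts seldom recurred on the same plasmid. At least 5 counts in every RNA library were found for 2 of the members' 553 barcodes, or 0.362% (exact 95% interval 0.0438 to 1.30%), against 6.53% outside (6.27 to 6.80%). At least 5 counts in any library were found for 29.8% (26.0 to 33.8%) against 45.4%. Detected in only 1 RNA library were 49.0% of the members' barcodes (44.8 to 53.3%), against 37.3% outside. The share with at least 5 counts in any library was 25.7% in cluster A (21.2 to 30.7%) and 36.7% in the other clusters (30.1 to 43.7%). In 15 members no barcode reached 5 counts in any library, and in 19 members 1 barcode held over 50% of the RNA counts. These counts of members were not made for elements outside, so they are no contrast with them.

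Barcode support was otherwise like that elsewhere. The median member had 6 counted barcodes, with a range from 2 to 37, and the median element outside also had 6. The median barcode had 27 plasmid DNA counts in members and 26 outside. The gap in output was seen in all classes of barcode number, but was smallest in the best supported class. Between members and elements outside, the fit's median log2 differed by -0.69 with 2 to 4 barcodes, -0.90 with 5 to 9, -1.05 with 10 to 19 and -0.33 with 20 or more. These classes held 18, 18, 13 and 8 members, and in the last the third library showed a difference of 0.0947, on the other side.

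Of the elements paired with barcodes in the windows, 57 of 75 (76.0%, exact 95% interval 64.7 to 85.1%) had counts, against 78.2% outside. Where at least 5 barcodes were paired, 56 of 65 (86.2%, 75.3 to 93.5%) had counts, against 94.4% outside (93.6 to 95.2%). The intervals of these shares take elements as independent draws. The 75 paired elements of the windows fell into 32 places, each a run of neighbouring tiles or a single element. They also share the plasmid pool, so the difference in counted elements was described and not tested. Of the paired barcodes, 35.6% were counted in the windows (33.2 to 38.1%) and 40.9% outside (40.6 to 41.3%). The count table holds a barcode only with at least 1 RNA count, so this share is itself tied to output, and the 18 elements without counts were not analysed further. They had a median of 4.5 paired barcodes, and the largest of them, starting at 27805974, had 13.

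The libraries ranked the members less alike than other elements. Between libraries, the Pearson correlation of log2 RNA/DNA was 0.465, 0.236 and 0.181 over the 57 members, with a mean of 0.294, and 0.526 over the 3321 elements outside. Over the 21 members with at least 10 barcodes it was 0.793 between the first and the second library and 0.314 and 0.341 with the third, against a mean of 0.724 outside. The members also spread less, with an SD of log2 RNA/DNA of 1.05 against 1.37. These values are descriptions across elements that share all libraries, and no p is given.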

How the data were processed

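The authors deposited raw counts per barcode for 1 plasmid DNA and 3 RNA libraries, and a table pairing 86107 barcodes with 4323 elements. Judged from their values, these are raw counts without normalization. Element coordinates are hg19, per the submitters' processing notes, and starts are printed counted from 1. The counting tool and the filter behind the count table are both not given in the sources used here. Every barcode in it has at least 10 DNA counts and at least 1 RNA count, and every element at least 2 barcodes.

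Counts were summed per element and tested on all 3378 elements with edgeR 4.0.16 (R 4.3.3), RNA against plasmid DNA, with TMM normalization (factors 1.47 for DNA and 0.876, 0.895 and 0.870 for RNA), the quasi-likelihood test, and p-values adjusted by Benjamini-Hochberg at 0.05. A filter of 2 barcodes and 10 DNA counts removed 0 elements. The SE is the absolute log2 ratio over the square root of F. With 1 DNA library, p-values measure the spread between electroporations of 1 plasmid library. On simulated counts the fit returned fold changes near those put in, but called only part of the raised elements, all of them large changes, and almost no lowered one; fold sizes and dispersion of the simulation were revised after earlier versions called few or no elements. Log2 ratios per library used a pseudocount of 0.5. Alternatives used DESeq2 1.42.0 and limma 3.58.1, and summaries Python 3.11.15, numpy 2.4.6, pandas 2.3.3 and scipy 1.17.1.

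The members, lists and tests were chosen with earlier results of these data known. Elements with values were named by this rule: called members, the 6 highest and the 6 lowest members with at least 5 barcodes, both tiles of overlapping pairs with at least 5 barcodes on each, and the 4 members with most barcodes. It gave 24 members. Others are named for their place in a run or a count and were chosen after their values were seen.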

Additional observations from a re-analysis of the deposited data

How the results depend on the processing

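No paired analysis was possible because the plasmid DNA is a single library and shares fewer than 2 replicate numbers with the RNA. The count of 0 members called above the centre held under each alternative run. Of all 3378 elements, 300 were called above in the main fit and 511 with limma-voom. Fewer were called without RNA replicate 2 (193), with library totals (169) and with RNA counts of 1 to 4 set to 0 (115). Only 21 members had at least 10 barcodes, and DESeq2 left 33 members without an adjusted p. A count of 0 says less in such runs. The sign of the members' difference from elements outside also held under each alternative. That difference, -0.86, was -1.25 with RNA counts of 1 to 4 set to 0, -0.61 over elements with at least 10 barcodes, -0.55 with the median over barcodes, -0.61 against outside elements with a paired element within 1000 bp, -0.51 against overlapping ones, -0.52 against other elements of chromosome 6, and, chosen after seeing the data, -0.13 against elements within 1 Mb and -0.19 without cluster A. Leaving out 1 RNA replicate gave -0.97 to -0.64. Library totals moved the median of all elements by -0.73, limma-voom by -0.29 and RNA counts of 1 to 4 set to 0 by -0.82. Medians of members and clusters, and sides of the centre, given below for these runs include that shift. The members' difference from elements outside was -0.86 with library totals and -0.87 with limma-voom.

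Members called below the centre numbered 1 with library totals, where 1.48% of all elements were called below, and 6 with limma-voom, where 4.03% were. The members' median, -0.88, was -1.62 with library totals, -1.18 with limma-voom, -2.09 with low counts set to 0, -0.72 with at least 10 barcodes, -0.54 with the median over barcodes, -0.21 without cluster A, and -1.02 to -0.69 without 1 RNA replicate. With library totals the medians of clusters A, C, D and F were -2.01, -0.93, -0.90 and -2.06. With low counts set to 0 those of A, B, C and F were -2.62, -2.29, -0.99 and -2.39. Cluster A was at -0.81 with the median over barcodes and cluster C at -0.99 with at least 10 barcodes. Without 1 RNA replicate cluster C ranged from -0.42 to 0.20, cluster D from -0.85 to 0.11 and cluster E from -0.68 to 0.93, so their side of the centre rests on single libraries: C was above it without replicate 2, D above it without replicate 3 and E below it without replicate 1. Cluster C was at 0.026 with at least 5 barcodes, and cluster D at 0.053 with the median over barcodes.

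The median tile difference, 1.18, was 2.27 with low counts set to 0, 1.82 with at least 5 barcodes, also where only the pairs were filtered after seeing the data, 0.850 with the median over barcodes, 0.708 with a pseudocount of 5, and 1.80 for the 1 pair sharing at least 100 bp. With at least 10 barcodes the median tile difference was 1.08. The counted share of paired elements, 76.0%, was 86.2% with at least 5 paired barcodes. Of the 24 named members, 6 changed side of the centre with library totals, 5 with low counts set to 0, 3 with at least 20 DNA counts per barcode, 1 without RNA replicate 2 and 1 without replicate 3. The causes were not tested.

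Depth limits the single members: the lowest log2 called above anywhere was 2.25 with 2 to 4 barcodes, 1.87 with 5 to 9, 1.41 with 10 to 19 and 1.13 with 20 to 37, and 36 of the 57 members had fewer than 10 barcodes.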
